A study of Mus musculus with 6 samples.

Results

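Heat shock proteins and their co-chaperones were followed through virgin mouse mammary gland, in cells of the basal layer, in cells enriched for luminal progenitors and in the unsorted epithelium. The set held 10 named genes: the HSP70 proteins Hspa1a, Hspa1b, Hspa5 and Hspa8, the HSP110 protein Hsph1, the HSP90 proteins Hsp90aa1 and Hsp90ab1, the J-domain protein Dnajb1, and the small heat shock proteins Hspb1 and Cryab. Its members were the non-control probes of the array that carried one of these names or an older synonym. This gave 17 of the 41174 non-control probes, and they covered 9 of the 27670 genes with a probe. Hspa1b had no probe under its own name. Hsph1 was found as Hsp110, its older name.

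RNA was measured on 6 Agilent 2-colour whole genome arrays, 1 for each combination of 3 populations and 2 genotypes. The mice were virgin C57/B6 animals, either DNP63 KO heterozygous (het) or wild type (WT), a name that stands for 1 copy of Trp63 without its ΔNp63 isoforms. P4 was the CD24+CD29hi gate, which the labels call MaSC enriched, P5 was the CD24+CD29lo gate, called luminal progenitor enriched, and MEC were total mammary epithelial cells without enrichment. All samples came from glands dissociated mechanically and enzymatically, so no group was free of that handling. Each array set the sample, in Cy5, against a common reference RNA in Cy3, a pool of 11 mouse cell lines. How many mice stood behind an array, and their age, were not given in the sources used here.

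Chaperones of these families bind unfolded or partly folded proteins and release them for folding. HSP70 works in an ATP-driven cycle: a J-domain protein such as Dnajb1 delivers the client and speeds ATP hydrolysis, and a nucleotide exchange factor such as Hsph1 resets the cycle. HSP90 takes over part of the clients, and the small heat shock proteins hold damaged proteins without using ATP. Hspa1a, Hspa1b, Dnajb1 and Hspb1 are classic targets of heat shock factor 1 and are switched on by heat and other stress to the cell, Hspa8 and Hsp90ab1 are made in most cells at all times, and Hspa5 (BiP) serves the endoplasmic reticulum and is a target of the unfolded protein response.

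Heat shock factor binds inverted repeats of the letters GAA, and the promoters of the set show how far its members share them. RefSeq's promoter table (GRCm38.p6) matched 6 of the 10 genes by symbol, namely Hspa1a, Hspa1b, Hspa5, Hsph1, Hspb1 and Dnajb1. The 250 bases before the transcription start are printed for the 5 that held a stress motif searched for, with that motif in capitals, from the first of 2 listed starts for Hsph1. Hspa1a and Hspa1b, neighbours on chromosome 17, are shown together because 2 array probes could not separate them.
Hspa1a, chr17:34972157-34972406, strand minus: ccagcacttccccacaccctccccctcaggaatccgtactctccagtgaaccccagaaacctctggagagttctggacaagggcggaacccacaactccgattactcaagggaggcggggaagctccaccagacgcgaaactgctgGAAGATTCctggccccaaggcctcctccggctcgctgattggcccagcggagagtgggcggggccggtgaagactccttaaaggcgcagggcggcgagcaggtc
Hspa1b, chr17:34959239-34959488, strand minus: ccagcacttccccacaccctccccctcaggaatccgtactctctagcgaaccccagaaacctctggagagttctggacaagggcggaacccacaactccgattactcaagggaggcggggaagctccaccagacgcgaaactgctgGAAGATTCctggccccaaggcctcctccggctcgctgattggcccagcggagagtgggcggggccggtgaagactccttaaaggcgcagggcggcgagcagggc
Hspb1, chr5:135887669-135887918, strand plus: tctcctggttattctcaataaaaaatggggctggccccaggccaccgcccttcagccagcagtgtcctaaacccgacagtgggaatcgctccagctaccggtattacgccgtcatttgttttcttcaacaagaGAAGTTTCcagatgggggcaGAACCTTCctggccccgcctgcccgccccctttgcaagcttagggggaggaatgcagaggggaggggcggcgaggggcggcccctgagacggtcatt
Hsph1, chr5:149636337-149636586, strand minus: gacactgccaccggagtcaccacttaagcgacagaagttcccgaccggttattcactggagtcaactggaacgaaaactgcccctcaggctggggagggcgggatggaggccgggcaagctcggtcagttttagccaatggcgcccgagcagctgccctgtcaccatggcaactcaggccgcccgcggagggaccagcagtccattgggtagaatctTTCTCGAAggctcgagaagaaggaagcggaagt
Hspa5, chr2:34771840-34772089, strand plus: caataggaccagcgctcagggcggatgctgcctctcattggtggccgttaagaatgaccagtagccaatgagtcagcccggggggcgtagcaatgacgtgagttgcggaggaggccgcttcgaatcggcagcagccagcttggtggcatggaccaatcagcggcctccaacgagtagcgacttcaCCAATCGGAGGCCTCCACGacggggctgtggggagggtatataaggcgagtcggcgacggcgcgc
In Hspa1a, Hspa1b and Hspb1 the capitals mark GAANNTTC, in Hsph1 they mark TTCNNGAA, and in Hspa5 they mark the endoplasmic reticulum stress element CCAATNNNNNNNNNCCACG.

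The promoters of Hspa1a and Hspa1b were identical at 247 of 250 aligned bases (98.8%). Each held 1 GAANNTTC at positions -104 to -97, counted back from the start, and Hspb1 held 2, at -117 to -110 and at -97 to -90. GAANNTTC and TTCNNGAA read the same on both strands, both are parts of the longer GAANNTTCNNGAA, and none of the 6 genes held the longer form. Among 32851 mouse promoter windows of the same length, 6.69% held GAANNTTC, 7.17% held TTCNNGAA, 0.466% held GAANNTTCNNGAA on either strand, and 0.113% held the stress element found at -65 to -47 in Hspa5. The Dnajb1 window before its first listed start held none of these motifs. A match describes these letters only.

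The arrays were of even quality for the set. All 17 probes were well above background in Cy5 on all 6 arrays and none was flagged. Over all probes, between 32461 (WT P4) and 39473 (het MEC) of 45018 spots were well above background. The 4 sorted samples shared slide 1 and both MEC samples lay on slide 2, so sorting and slide cannot be told apart. The het sample had a later position on its slide than the WT sample of the same population, and these 2 cannot be told apart either. Over 245 probes spotted 10 times, a single spot had an SD of 0.10 on the log2 scale. Basal markers followed the P4 gate, with Krt14 at 5.38 in het P4 and 4.74 in WT P4, against 3.02 in het P5 and 2.22 in WT P5 (log2 of sample over reference). Luminal Krt8 followed P5, at 1.91 in het P4 and 2.13 in WT P4, against 4.69 in het P5 and 5.42 in WT P5. Total MEC carried RNA of other gland cells, since the fibroblast gene Dcn read 2.97 in het MEC and 3.41 in WT MEC and was below 0 on all 4 sorted arrays. Trp63 read 5.29 in het P4, against 4.41 in WT P4, 0.89 in het P5, against 0.46 in WT P5, and 2.65 in het MEC, against 2.79 in WT MEC. The labels do not say whether the Trp63 probe lies in the sequence that was removed, so it did not check the genotypes.

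**Figure D1:**
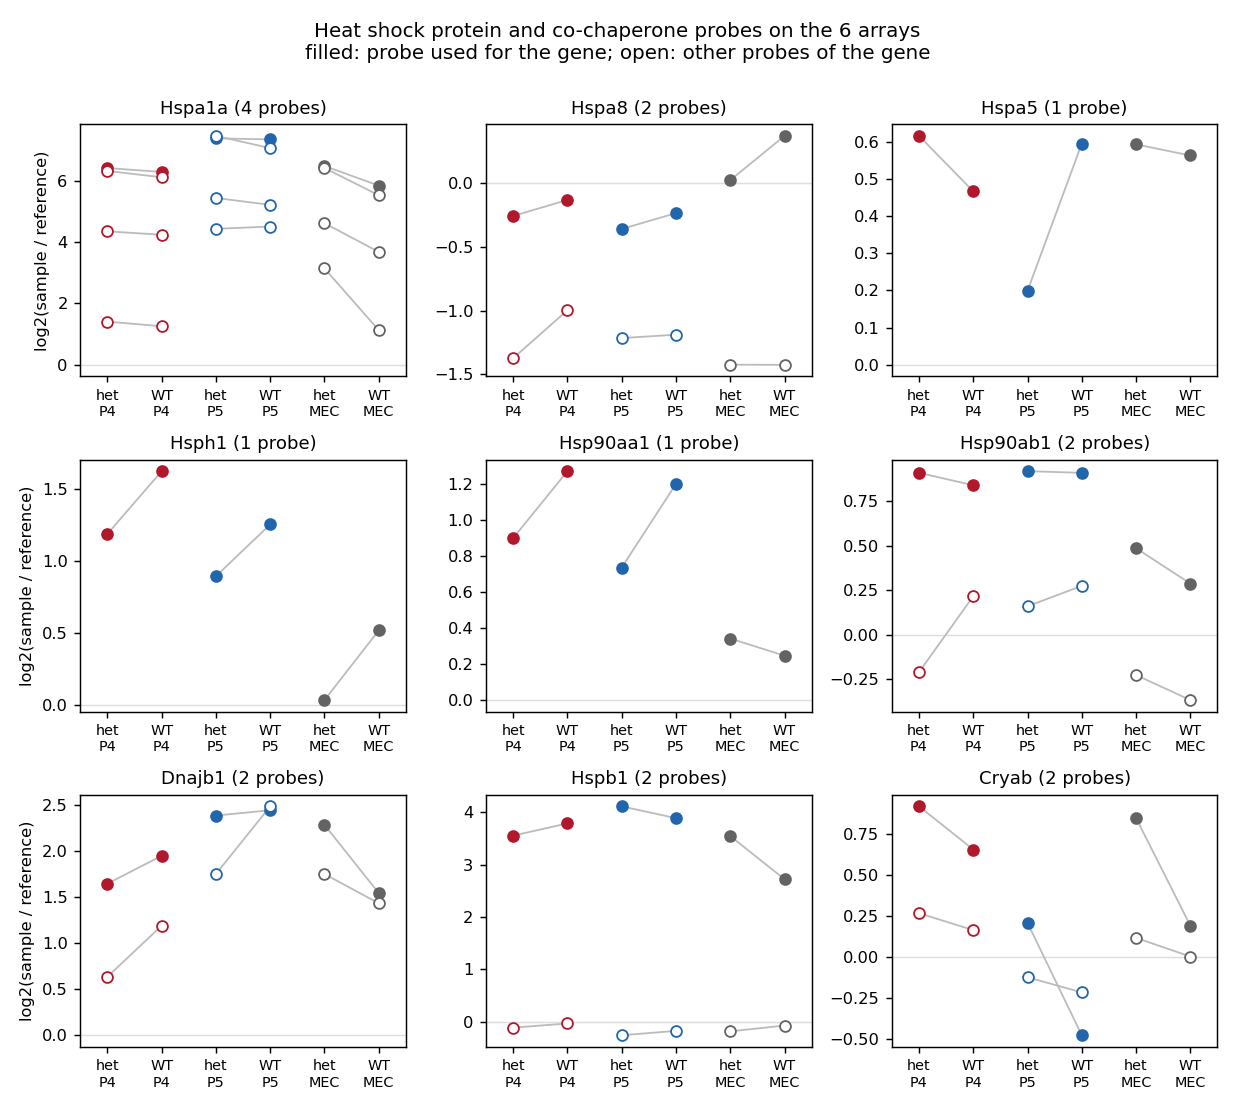
Log2 of sample over reference (y axis, 1 scale per gene) for all 17 probes on the 6 arrays (x axis), coloured by population, with het left of WT. Filled points are the probe used for the gene, open points its other probes, and grey lines join het and WT. Hspa1a and Dnajb1 lie higher in P5 than in P4, Cryab lies higher in P4 than in P5, and after loess Hsph1 and Hsp90aa1 lie lower in MEC than in the sorted cells, a direction that turns with median centring.

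For tests, limma fitted population and genotype as additive terms to 24829 genes, 1 probe a gene, and called a gene at a Benjamini-Hochberg adjusted p under 0.05 over all of them. With 1 array a group, the spread in this fit came from how far the genotype difference varied among populations, with 2 residual degrees of freedom. Between P4 and P5, 2 of the 9 genes were called, Cryab higher and Hspa1a lower, beside 10.6% of all genes tested. In P4 against MEC, 1 of the 9 was called, Hsph1, beside 6.8% of all genes. In P5 against MEC the same gene was the 1 called, beside 3.91% of all genes. The arrays of P4 and P5 did not overlap in 4 of the 9, 1 higher in P4 and 3 lower, beside 23.6% and 22.5% of all genes. Against MEC, P4 did not overlap in 4 genes that were higher and 1 that was lower, beside 22.9% and 23.2%, and P5 in 6 that were higher and 1 that was lower, beside 25% and 23.7%. Counts of 1 or 2 calls among 9 genes do not mark the set off from all genes. Their median log2 difference was 0.10, 0.27 and 0.53 in these comparisons, beside 0.04, 0.04 and 0.03 over all genes. With median centring all 9 genes were lower in P4 and in P5 than in MEC, where 3 of the 9 had been lower in each after loess. Their medians were -0.99 and -0.87, beside -0.23 and -0.35 over all genes. Of the 9, 5 in P4 and 6 in P5 did not overlap MEC, all of them lower. The share of all genes without overlap was not computed with this setting. It called 28.2% and 33.2% of all genes in these comparisons, 6679 and 7794 of them lower.

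**Figure D2:**
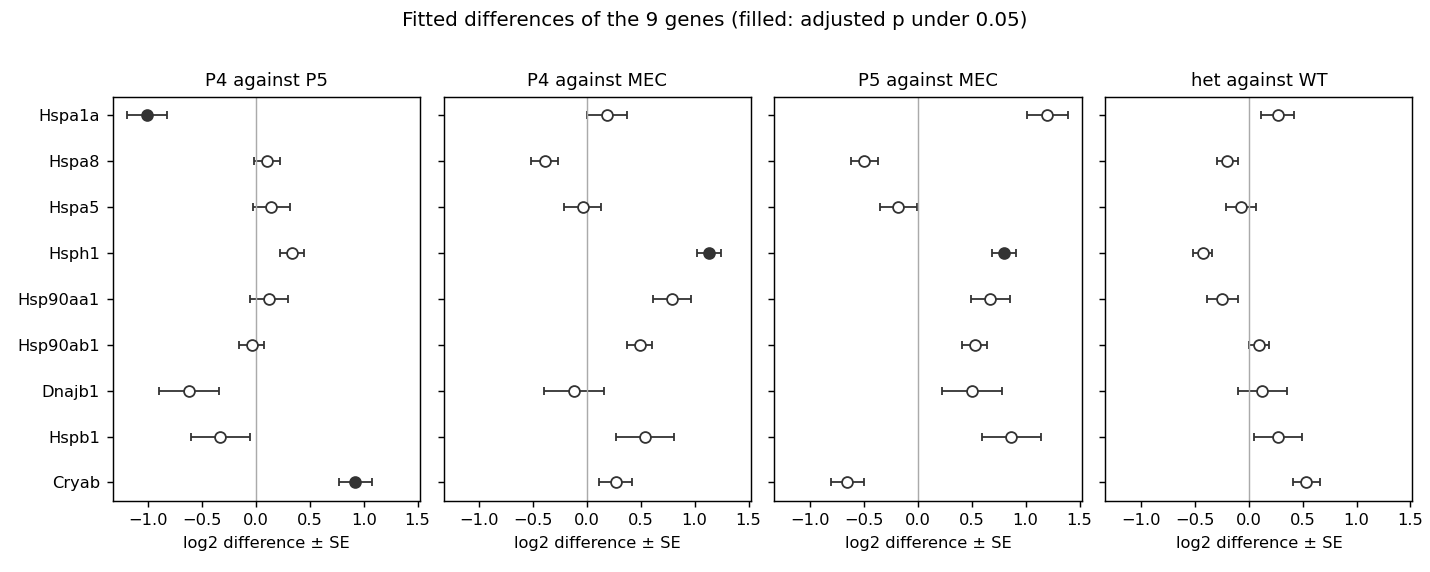
Fitted log2 difference with its SE (x axis) for each of the 9 genes (y axis) in P4 against P5, P4 against MEC, P5 against MEC and het against WT. Filled points have an adjusted p under 0.05: Hspa1a (-1.01) and Cryab (0.92) in P4 against P5, and Hsph1 in P4 against MEC (1.13) and in P5 against MEC (0.80), whose direction turns with median centring.

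Hspa1a, the stress-inducible cytosolic HSP70, was lower in the basal P4 cells than in the luminal P5 cells. Its brightest probe, probe 1, read 6.41 in het P4 and 6.28 in WT P4, against 7.37 in het P5 and 7.34 in WT P5, on the log2 scale of sample over reference. MEC lay at 6.47 in het and 5.83 in WT. Both P5 arrays were above the other 4, while P4 and MEC overlapped. P4 against P5 differed by -1.01 ± 0.19 (log2, SE), a 2.02-fold lower level, with an adjusted p of 0.0437. P5 against MEC differed by 1.20 ± 0.19 and narrowly missed the threshold, with an adjusted p of 0.0509 (-0.18 with median centring), and P4 against MEC by 0.19 ± 0.19, with an adjusted p of 0.601. P4 against MEC turned to -1.21 with median centring and was called (adjusted p = 0.0416), and to -1.03 from the Cy5 channel alone (adjusted p = 0.0815). The P4 against P5 call was lost without WT P4 (-1.12, adjusted p = 0.216), without WT P5 (-0.84, adjusted p = 0.287), without het P4 (-0.91, adjusted p = 0.298) and without het P5 (-1.19, adjusted p = 0.109), settings in which no gene of the whole array was called. Other settings that ended the call were median centring (adjusted p = 0.178), the scanner's ratios (adjusted p = 0.0884), the series table (adjusted p = 0.0883) and replacing outlier backgrounds (adjusted p = 0.0709).

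The other Hspa1a probes put P4 below P5 as well, by sizes that were not alike. Probe 2 read 6.31 in het P4 and 6.11 in WT P4, against 7.45 in het P5 and 7.06 in WT P5. Probe 3 read 4.35 and 4.23 in het and WT P4, against 5.43 and 5.21 in het and WT P5. These probes repeated the size of the first, with P4 minus P5 at -1.05 ± 0.19 and -1.03 ± 0.23 when every probe was fitted on its own, and the adjusted p was 0.0444 for probe 2 and 0.0671 for probe 3. Probe 4, the dimmest, read 1.41 in het P4 and 1.26 in WT P4, against 4.43 in het P5 and 4.50 in WT P5. Here the difference was -3.13 ± 0.54 with an adjusted p of 0.0389. Its raw Cy5 intensity in P4 was only 170 in het and 424 in WT, and the size depended on the background treatment. P4 minus P5 at probe 4 was -2.39 with outlier backgrounds replaced, -1.91 with the scanner's ratios and -3.32 with offset 0. WT P4 read 2.95, 4.13 and 1.37 in these settings. The array annotation listed RefSeq transcripts of both Hspa1a and Hspa1b for probes 3 and 4, and of Hspa1a alone for probes 1 and 2, so the levels of the 2 genes could not be separated.

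At the Hspa1a spots the reference channel moved with the sample channel, although every array received the same reference RNA. The mean Cy5 intensity of probe 1, before any normalization, was 17885 in het P4 and 46453 in WT P4, against 77962 in het P5 and 180909 in WT P5. Its Cy3 intensity was 1306 in het P4 and 1703 in WT P4, against 1981 in het P5 and 2595 in WT P5. So both channels put the 4 sorted arrays in the same order. The highest over the lowest Cy3 value on these arrays was 1.99 for probe 1, 2.58 for probe 2, 5.22 for probe 3 and 1.96 for probe 4. Over 15478 probes with a mean Cy3 intensity above 500 the median of that quotient was 1.15 and the 95th percentile 1.36. Probe 4 was too dim to be among them, with Cy3 between 99 in het P4 and 194 in WT P5, so its quotient has no such background. Hspb1 had 1.49 at its brighter probe, and the other 7 genes had between 1.13 and 1.29 at the probe used for them. Read from the Cy5 channel alone, scaled between arrays, P4 minus P5 for Hspa1a was -1.60 (adjusted p = 0.0368), and P5 minus MEC was 0.57 (adjusted p = 0.299). Whether signal of one dye in the other channel took part was not tested.

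**Figure D3:**
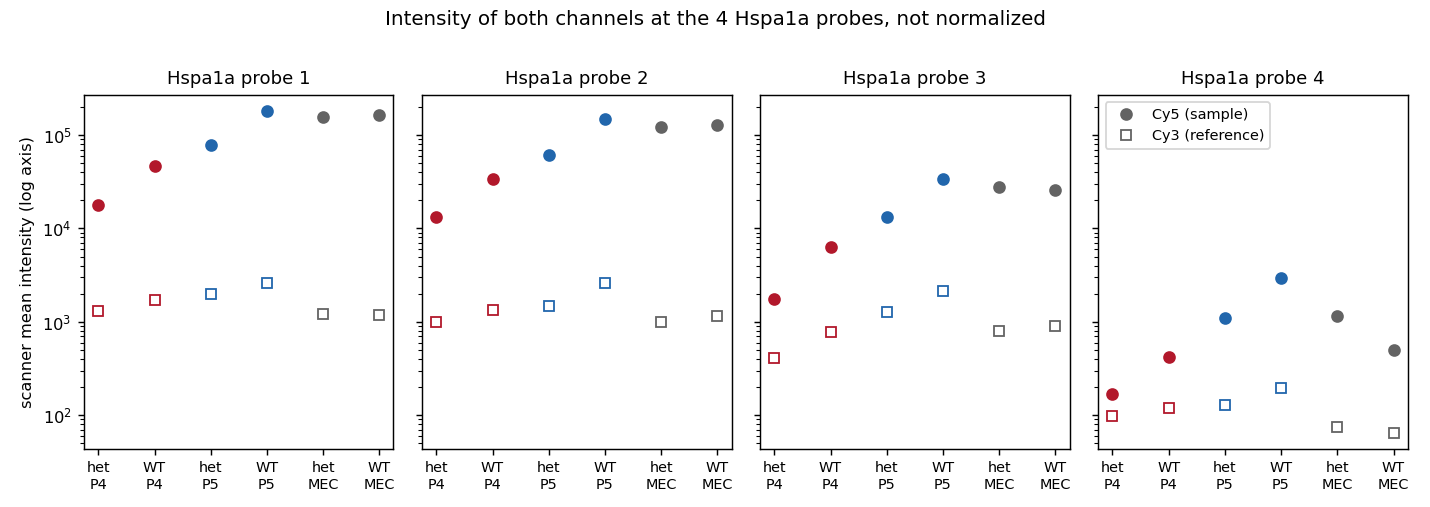
Mean scanner intensity without normalization (y axis, log axis) at the 4 Hspa1a probes on the 6 arrays (x axis), with the sample channel Cy5 as filled circles and the reference channel Cy3 as open squares, coloured by population. On the 4 sorted arrays Cy3 follows the order of Cy5, at probe 3 between 411 in het P4 and 2146 in WT P5.

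Dnajb1, the HSP40 that works with stress-inducible HSP70, read lower in P4 than in P5, as Hspa1a did, without passing the test. The brighter of its probes read 1.64 in het P4 and 1.95 in WT P4, against 2.38 in het P5 and 2.44 in WT P5. In MEC it read 2.28 in het and 1.54 in WT. The P4 and P5 arrays did not overlap, and the fitted difference of -0.62 ± 0.28 had an adjusted p of 0.263. Its second probe gave -1.20 ± 0.28 with an adjusted p of 0.0725, from 0.63 in het P4 and 1.19 in WT P4, against 1.75 in het P5 and 2.48 in WT P5. Fitted on the 4 sorted arrays alone, the first probe passed, at -0.62 with an adjusted p of 0.0407. The size was unchanged, and that fit called 18.6% of all genes in P4 against P5, beside 10.6% with all arrays. So this call does not mark Dnajb1 off from all genes. P5 minus MEC was 0.50 ± 0.28 (adjusted p = 0.377), and P4 minus MEC was -0.12 ± 0.28 (adjusted p = 0.848). With median centring P5 minus MEC turned to -0.87 (adjusted p = 0.159), and P4 minus MEC was -1.54 and called (adjusted p = 0.0495).

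Hspa8, the constitutive cytosolic HSP70, read slightly lower in the sorted cells than in MEC without passing the test. The brighter probe read -0.26 in het P4 and -0.13 in WT P4, -0.36 in het P5 and -0.23 in WT P5, and 0.02 in het MEC and 0.37 in WT MEC. All 4 sorted arrays lay below both MEC arrays, with P4 minus MEC at -0.39 ± 0.12 (adjusted p = 0.139) and P5 minus MEC at -0.49 ± 0.12 (adjusted p = 0.110). With median centring these were -1.95 (adjusted p = 0.00787) and -1.94 (adjusted p = 0.00857), and both were called. The dimmer probe had the opposite sign, with P4 minus MEC at 0.24 ± 0.14 and P5 minus MEC at 0.22 ± 0.14. The array annotation placed both Hspa8 probes on chromosome 5, while RefSeq places the gene on chromosome 9, so neither probe was tied to the gene by position.

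Hspa5, the HSP70 of the endoplasmic reticulum whose promoter holds the stress element printed above, had the smallest range of the set after loess, 0.42 over the 6 arrays, but not with median centring, where its range was 2.77 and 7 genes had a smaller one. It read 0.62 in het P4 and 0.47 in WT P4, 0.20 in het P5 and 0.59 in WT P5, and 0.59 in het MEC and 0.56 in WT MEC. Only het P5 stood below the others. P4 minus P5 was 0.14 ± 0.17 (adjusted p = 0.702), and its 95% interval of -0.31 to 0.60 leaves room for a change either way. With median centring it was called lower than in MEC in both P4 (-1.53, adjusted p = 0.00892) and P5 (-1.60, adjusted p = 0.00931).

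Hsph1, the HSP110 exchange factor of HSP70, was higher in both sorted populations than in the unsorted epithelium after loess, but not with median centring. It read 1.19 in het P4 and 1.63 in WT P4, 0.90 in het P5 and 1.26 in WT P5, against 0.04 in het MEC and 0.52 in WT MEC. Every sorted array was above both MEC arrays, and het was below WT in each population. P4 minus MEC was 1.13 ± 0.11, a 2.19-fold higher level with an adjusted p of 0.0247, and P5 minus MEC was 0.80 ± 0.11, 1.74-fold higher with an adjusted p of 0.0404. P4 minus P5 was 0.33 ± 0.11 (adjusted p = 0.146). With any 1 of the 6 arrays left out, P4 minus MEC was 1.09 to 1.17 and P5 minus MEC was 0.75 to 0.85. Such fits leave 1 array in a group, so they give the size only and do not back the calls. With median centring in place of loess the signs turned, to -0.22 for P4 and -0.54 for P5, where the median of all genes was -0.23 and -0.35. Markers of other cells moved with this comparison. After loess all 8 fibroblast markers were lower in P4 and in P5 than in MEC. Called were 4 of them in P4 and 7 in P5, beside 6.8% and 3.91% of all genes. The fibroblast markers had summed Cy5 intensities of 28876 to 40515 in P4 and 10734 to 20983 in P5, against 198083 to 365267 in MEC. Their part in the Hsph1 difference was not tested.

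Both cytosolic HSP90 genes read higher in the sorted cells than in MEC without passing the test, a sign that turned with median centring. Stress-inducible Hsp90aa1 read 0.90 in het P4 and 1.27 in WT P4, 0.74 in het P5 and 1.20 in WT P5, against 0.34 in het MEC and 0.25 in WT MEC. P4 minus MEC was 0.79 ± 0.18 (adjusted p = 0.0770) and P5 minus MEC was 0.67 ± 0.18 (adjusted p = 0.124). All sorted arrays lay above both MEC arrays. Constitutive Hsp90ab1 read 0.91 in het P4 and 0.84 in WT P4, 0.92 in het P5 and 0.91 in WT P5, against 0.49 in het MEC and 0.29 in WT MEC at its brighter probe. P4 minus MEC was 0.49 ± 0.12 (adjusted p = 0.0852) and P5 minus MEC was 0.53 ± 0.12 (adjusted p = 0.0897). The dimmer Hsp90ab1 probe gave 0.30 and 0.51 for the same differences. Between P4 and P5 neither gene differed beyond its error, with 0.12 ± 0.18 for Hsp90aa1 (adjusted p = 0.771) and -0.04 ± 0.12 for Hsp90ab1 (adjusted p = 0.890).

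Cryab, or alpha B-crystallin, a small heat shock protein known from lens and muscle, was higher in basal P4 than in luminal P5 cells. Its brighter probe read 0.92 in het P4 and 0.65 in WT P4, against 0.21 in het P5 and -0.48 in WT P5, and 0.85 in het MEC and 0.19 in WT MEC. The P4 arrays did not overlap the P5 arrays, while het MEC lay between the P4 arrays and WT MEC between the P5 arrays. P4 minus P5 was 0.92 ± 0.15, a 1.89-fold higher level with an adjusted p of 0.0355. Against MEC, P4 differed by 0.27 ± 0.15 (adjusted p = 0.352) and P5 by -0.65 ± 0.15 (adjusted p = 0.101). With median centring these were -0.88 (adjusted p = 0.132) and -1.75, which was called (adjusted p = 0.0200). The P4 against P5 call was lost with median centring (0.87, adjusted p = 0.290), the scanner's ratios or the series table (0.99, adjusted p = 0.0716 each). P4 minus P5 was 0.72 without WT P4, 0.81 without WT P5, 1.13 without het P4 and 1.03 without het P5. Those fits leave 1 array in a group, so they give the size only and do not back the call. The dimmer probe had the same sign, at 0.27 in het P4 and 0.16 in WT P4, against -0.12 in het P5 and -0.22 in WT P5, a difference of 0.39 ± 0.10 with an adjusted p of 0.0970.

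Basal markers moved with Cryab, and so did some muscle and fibroblast markers. All 12 genes of that list rose in P4 against P5, with a median log2 difference of 4.66 and summed Cy5 intensities of 1353037 to 1517558 in P4, against 18341 to 30477 in P5. Of 6 skeletal muscle markers 5 had a positive difference, with a list median of 0.52 and summed Cy5 intensities of 8965 to 9675 in P4, against 1080 to 1340 in P5. The 1 that passed was Acta1, at 3.43 in het P4 and 3.18 in WT P4, against -1.54 in het P5 and -2.01 in WT P5. The defining muscle genes Ckm and Myh4 differed by -0.03 and 0.01, and Tnnt3, Des and Myl1 by 0.40, 0.63 and 0.68. Fibroblast markers were positive in 8 of 8, with a list median of 1.27, and Fbln1, Dcn and Pdgfrb passed. Their summed Cy5 intensities were 28876 to 40515 in P4, against 10734 to 20983 in P5. The part of muscle RNA, fibroblast RNA or the basal cell share in the Cryab difference was not tested, and in bulk RNA a higher share of cells of a type cannot be told apart from more RNA per cell.

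Hspb1, called HSP25 in mouse, was the second small heat shock protein. It read 3.55 in het P4 and 3.79 in WT P4, 4.11 in het P5 and 3.89 in WT P5, and 3.55 in het MEC and 2.72 in WT MEC. WT MEC was the lowest array and het P5 the highest, and P4 lay just below P5. P4 minus P5 was -0.33 ± 0.27 (adjusted p = 0.559), P4 minus MEC 0.54 ± 0.27 (adjusted p = 0.299) and P5 minus MEC 0.87 ± 0.27 (adjusted p = 0.168). With median centring the differences from MEC turned to -0.81 for P4 and -0.49 for P5. A second probe carrying this gene's name stayed between -0.26 and -0.03 on all 6 arrays. Its accession matched no RefSeq transcript and the array placed it on chromosome 13, away from the gene on chromosome 5, so only the brighter probe was read as Hspb1.

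Genotype gave no call in the set. Over populations, 0 of the 9 genes passed in het against WT, as did 0% of all genes, while 20.9% of all genes (5180) and 2 of the 9 had an unadjusted p under 0.05. Those were Hsph1 and Cryab. For Hsph1, het P4 lay 0.44 below WT P4, het P5 0.36 below WT P5 and het MEC 0.48 below WT MEC. For Cryab, het lay above WT by 0.26 among the P4 arrays, 0.69 among P5 and 0.66 among MEC. Their fitted differences were -0.43 ± 0.09 for Hsph1 and 0.53 ± 0.13 for Cryab, both with an adjusted p of 0.207. The dimmer Cryab probe differed by 0.10, 0.09 and 0.11 in P4, P5 and MEC. Hspa8 was lower in het in all 3 populations too, by 0.13, 0.12 and 0.35. Hspa1a was higher in all 3, by 0.13, 0.03 and 0.64, and so was Hsp90ab1, by 0.07, 0.01 and 0.20. The P4 and P5 values of these genes were below 0.14, the SD of a difference between single spots. The second Hsp90ab1 probe differed by -0.43, -0.12 and 0.14, and the second Hspa8 probe by -0.38, -0.03 and 0.001. Hspa1a in P4 turned to -0.28 with outlier backgrounds replaced, -0.29 with the scanner's ratios and -0.60 from Cy5 alone. At the probes used, 3 of 9 genes were higher and 2 of 9 lower in every population, beside 33.5% and 14.4% of all genes. With median centring, which shifted the median of all genes to -0.21, 5 of the 9 genes were called, all lower in het, and so were 7140 of the 7841 genes called on the whole array.

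**Figure D4:**
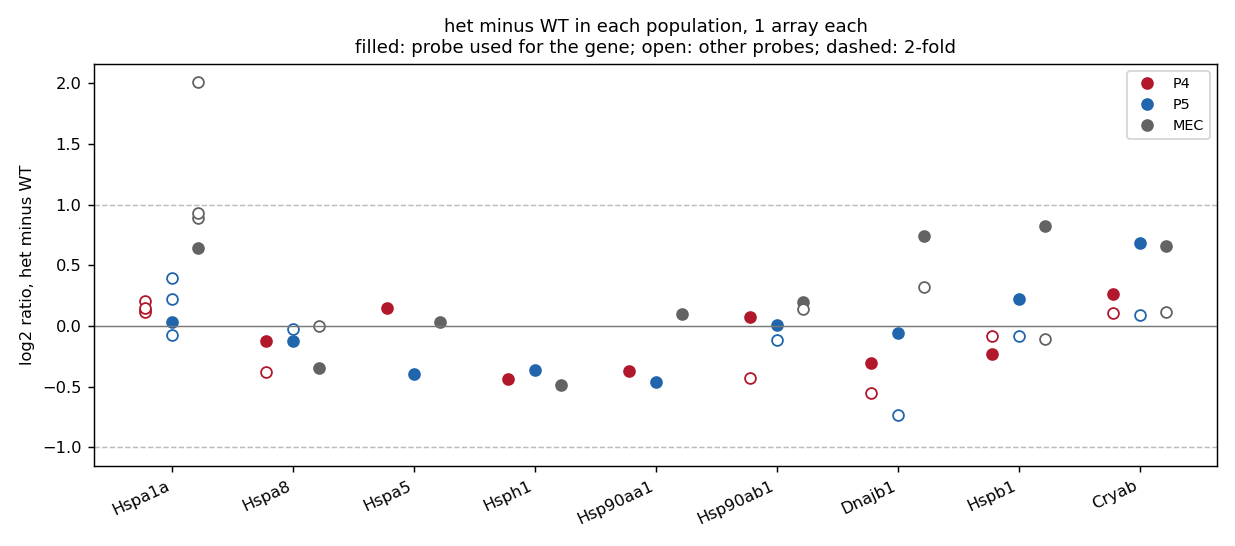
Het minus WT log2 ratio (y axis) in P4, P5 and MEC, coloured as in the legend, for every probe of the 9 genes (x axis), filled for the probe used and open for others; dashed lines mark 2-fold. Hsph1 is below 0 and the filled Cryab point above 0 in all 3 populations after loess (Cryab turns with median centring in P4 and P5). Hspa1a probe 4 in MEC (2.01) is the one point beyond 2-fold, a dim probe that gave 1.01 with the scanner's ratios and 2.76 with offset 0.

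Within a population, het and WT were 1 array each and were not tested. None of the 9 genes was 2-fold apart in P4, P5 or MEC, beside 6.3%, 3.16% and 2.71% of the genes measured there. After loess the differences were widest in MEC, where het exceeded WT by 0.82 for Hspb1, 0.74 for Dnajb1, 0.66 for Cryab and 0.64 for Hspa1a. With median centring they were widest in P4, at -2.08 to -1.22 for the 9 genes, with -1.36 to -0.12 in P5 and -1.41 to 0.12 in MEC. In that setting 9, 4 and 2 genes were 2-fold apart, but the share of all genes 2-fold apart was computed after loess only. Over populations, median centring called 7140 of all 24829 genes lower in het, so these counts do not mark the set off from all genes. After loess all 4 Hspa1a probes were higher in het MEC than in WT MEC, probe 4 at 3.14 in het, against 1.13 in WT. That probe 4 difference was 1.06 with outlier backgrounds replaced, 1.01 with the scanner's ratios and 2.76 with offset 0. Luminal markers moved with them in MEC: all 12 were higher in het MEC, 7 of them at least 2-fold, with a summed Cy5 intensity of 839679 in het, against 476397 in WT, and the fibroblast sum was 198083 in het, against 365267 in WT. Higher in het MEC were also 7 of 7 endothelial, 6 of 6 adipocyte and 3 of 3 erythroid markers. Their list medians were 0.55, 0.42 and 0.35, beside 1.04 for luminal markers. The other lists were higher in 6 of 12 basal, 4 of 8 immune, 1 of 6 muscle and 0 of 8 fibroblast markers. The part of cell makeup in the het MEC differences was not tested.

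The wider chaperone network was read from lists of 79 other genes. Between P4 and P5, 6 were higher and 2 lower (10.1%), with a median log2 difference of 0.09, and in P4 against MEC 5 were higher and 3 lower (10.1%). In P5 against MEC 3 were lower and none higher (3.8%), and in het against WT none passed. These shares sit beside the 10.6%, 6.8%, 3.91% and 0% of all genes given above. All values of list genes, here and below, are after loess. With median centring 6679 of 7009 calls in P4 against MEC were lower, and Hsph1 turned from 1.13 to -0.22 there. The values of the list genes with that setting are not given, so whether their differences from MEC keep their sign is not shown. Among other HSP70 proteins, Hspa2, best known from the testis, was higher in P4, at 3.22 in het and 2.92 in WT, against 1.56 in het P5 and 1.54 in WT P5 (1.52 ± 0.13, adjusted p = 0.0115). It also exceeded MEC by 0.90 ± 0.13 (adjusted p = 0.0396), and its second probe gave 1.08 in P4 against P5 with an adjusted p of 0.0561. Hspa12b, a distant relative found in endothelium, was lower in P5 than in MEC (-1.13 ± 0.17, adjusted p = 0.0462). All 7 endothelial markers were lower there too, 6 of them called, beside 3.91% of all genes.

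Of 7 exchange factors of HSP70, 2 were called higher and 1 lower in P4 against P5, beside 5.03% and 5.55% of all genes. Bag2, an exchange factor that restrains the ubiquitin ligase CHIP, read 0.61 in het P4 and 0.47 in WT P4, against -0.45 in het P5 and -0.66 in WT P5, and rose by 1.10 ± 0.11 (adjusted p = 0.0145). Bag5 rose by 1.03 ± 0.16 (adjusted p = 0.0316) in P4 against P5. Sil1, the exchange factor of Hspa5 in the endoplasmic reticulum, fell in P4, by 1.08 against P5 (adjusted p = 0.0327) and by 1.24 against MEC (adjusted p = 0.0360). Of 13 J-domain proteins 1 was called there, Dnajb2, which fell in P4 against P5 (-1.12 ± 0.19, adjusted p = 0.0373), and Dnajc3, an inhibitor of the kinase PERK, fell in P4 against MEC (-1.13 ± 0.16, adjusted p = 0.0385; -1.07, -0.90 and -0.22 at its other probes). Unc45a, the myosin chaperone that works with HSP90, was higher in P4, by 0.92 ± 0.12 against P5 (adjusted p = 0.0230) and by 0.91 ± 0.12 against MEC (adjusted p = 0.0343).

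Among small heat shock proteins, Hspb8, a partner of Bag3, was higher in P4, at 1.03 in het and 1.31 in WT, against 0.43 in het P5 and 0.54 in WT P5 (0.69 ± 0.11, adjusted p = 0.0348). All 7 of that list had a positive difference, with a list median of 0.13, beside 0.04 over all genes. The share of all genes with a positive difference is not given here. Hspb2, the neighbour of Cryab in the genome, was called lower than in MEC in P4 (-0.78) and in P5 (-1.25), while its second probe differed by -0.07 and -0.10. Of 10 chaperonin genes, Cct3 exceeded its MEC level in P4 after loess by 1.02 ± 0.14 (adjusted p = 0.0353), though a second probe under that name, without a RefSeq match, differed by -0.11. None was called between P4 and P5. Of 19 targets of endoplasmic reticulum stress, Herpud1 alone was called between P4 and P5 (0.77 ± 0.12 higher, adjusted p = 0.0334), and the median of the list was 0.01, while Hspa5 differed by 0.14.

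Hsf1, the heat shock factor itself, depended on the probe. The 2 probes that matched a RefSeq transcript of Hsf1 lay between -0.81 and 0.06 on all 6 arrays, with P4 minus P5 at 0.21 and 0.01 and het minus WT at -0.11 and -0.40, none of them called. The brightest probe under this name, whose accession matched no RefSeq transcript, was the one the fit used. It read 3.94 in het P4 and 1.70 in WT P4, 2.89 in het P5 and 1.40 in WT P5, and lower in both MEC arrays. It was called in P4 against MEC (2.20 ± 0.36 higher, adjusted p = 0.0446), and so this call is not read as a change of Hsf1. Hsf2 and Hsf4, the other heat shock factors measured, were above background on 2 and 3 of the 6 arrays and stayed between -0.44 and 0.03. Hsbp1, a protein that binds heat shock factor and the remaining gene of that list, differed by 0.30 ± 0.12 in P4 against P5 (adjusted p = 0.225).

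**Figure D5:**
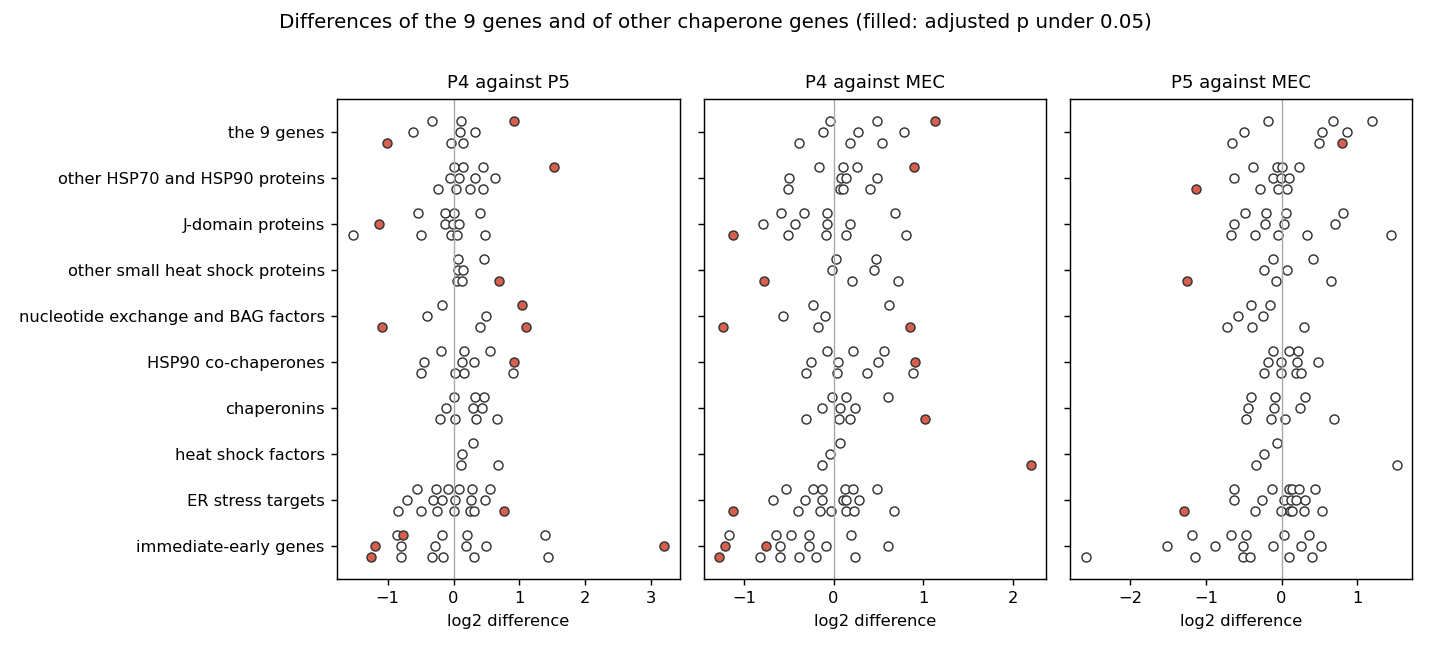
Log2 difference (x axis) of the 9 genes, of the other chaperone lists and of the immediate-early genes (y axis, 1 point a gene, spread vertically for legibility) in P4 against P5, P4 against MEC and P5 against MEC. Filled points have an adjusted p under 0.05, and most genes of every list lie within 1 log2 unit of 0.

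Immediate-early genes, which respond within minutes to handling of tissue as well as to growth signals, were set beside Hspa1a. Of 17, 3 were called lower in P4 than in P5 (Fos, Jun and Jund) and 1 higher (Egr2), beside 10.6% of all genes called, and 7 had a positive difference, with a list median of -0.18. Fos read 1.95 in het P4 and 2.32 in WT P4, against 3.30 in het P5 and 3.49 in WT P5, so both P5 arrays were above both P4 arrays, as for Hspa1a. Egr2 ran the other way, at 3.32 in het P4 and 2.88 in WT P4, against 0.59 in het P5 and -0.78 in WT P5. In P4 against MEC after loess, 3 of 17 were called, Jun, Egr1 and Btg2, all lower, beside 6.8% of all genes. Btg2 differed by -0.76, and by -0.36 and -0.32 at its other probes, neither of them called. The list median in that comparison was -0.47, and Hspa1a differed by 0.19. The part of tissue handling in the Hspa1a difference was not tested.

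Among themselves the 9 genes were compared by their profile over the 6 arrays, measured as the root mean square difference of log2 ratios after centring each gene, which is 0 for the same profile. Hsph1 and Hsp90aa1 (0.22), Hspa5 and Hspa8 (0.22) and Hsp90aa1 and Hsp90ab1 (0.23) were the closest pairs, followed by Hspb1 with Hsp90ab1 (0.26). Hspb1 with Dnajb1 (0.28), Hspa1a with Hspb1 (0.31) and Hspa1a with Dnajb1 (0.32) came next, and Hspa1a with Cryab (0.91) was the farthest. Over all other genes, the profiles nearest to Hspa1a were those of Itpr3 (0.09), Pik3r1 (0.11) and Trappc3 (0.13). The nearest to Dnajb1 were LOC673182 (0.07), Tubb4b (0.07) and Gabarap (0.10). Cryab was nearest to Litaf (0.11), Glrx (0.15) and Gpx2 (0.15), and Hspa5 to AK051705 (0.03), Aox1 (0.04) and Plcd1 (0.04). These are descriptions over 6 arrays that share 1 reference RNA.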

How the data were processed

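RNA of 6 samples, 1 for each population and genotype, was hybridised in Cy5 against a common reference in Cy3, with no dye swap. Per the file headers, the authors deposited Agilent Feature Extraction output (version 9.5.3.1, per the submitters' processing notes) with mean and background intensity per spot and channel. The scanner software's log ratio is log10 of Cy5 over Cy3, per the file headers. The authors also deposited a series table, whose values lay on the log2 scale of the scanner's ratios and followed them with r of at least 0.988 on each array. The log2 ratios used here were computed from the deposited intensities.

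Intensities were background-corrected with normexp (offset 50) and normalized within arrays by loess in limma 3.58.1 (R 4.3.3), control spots with weight 0, flagged spots left out. Probes were named by RefSeq accession (22951), synonym (3109) or the array's own name. The probe with the highest mean Cy5 level stood for a gene, among probes well above background on at least 2 arrays. lmFit and eBayes fitted population and genotype over 24829 genes, with Benjamini-Hochberg adjustment. In a test on simulated data for P4 against P5 (24691 genes), 75% of genes shifted by 1 log2 unit and 93% of those shifted by 2 were called. The number of arrays limits the precision, and whether samples were pooled from several mice is not given in the sources used here. The p-values rest on noise and on how far the genotype difference varied among populations, with 2 residual degrees of freedom. To these eBayes added 2.49 prior degrees of freedom, taken from the spread of all genes. They cover these 6 samples only and do not measure the spread between mice.

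The members and the gene lists were chosen with earlier results of these data known. The text names every member with all probes, up to 3 called genes a list and direction, the 3 nearest profiles of 4 members, defining markers and Trp63. Het against WT within a population was 1 array against 1, with no test. Alternatives were another background treatment, offset 0, median centring, the scanner's ratios, the series table, Cy5 alone, other filters, other probe rules, each array left out and the sorted arrays alone. Probe coordinates are not given, since the build of the array annotation was not given in the sources used here.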

Additional observations from a re-analysis of the deposited data

Results flagged for a closer look

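After loess, het and WT differed in opposite directions between populations in 4 genes. Each difference is 1 array minus 1 array, so that the directions differ was not tested. Dnajb1 differed by -0.30 in P4 and -0.057 in P5, and by 0.74 in MEC. Its second probe gave -0.56, -0.73 and 0.32 for the same populations, with the same signs. Hspb1 differed by -0.23 in P4, by 0.23 in P5 and by 0.82 in MEC. Hsp90aa1 differed by -0.37 in P4 and -0.46 in P5, and by 0.095 in MEC. Hspa5 differed by 0.15 in P4, by -0.40 in P5 and by 0.030 in MEC. The pattern depended on the normalization. With median centring Dnajb1, Hsp90aa1 and Hspa5 were lower in het in all 3 populations, at -0.14, -0.90 and -0.95 in MEC. Hspb1 was then at -1.84 in P4, -0.66 in P5 and 0.017 in MEC. The SD of a difference between single spots was 0.14, so 0.030, -0.057, 0.095 and 0.15 are at or near the size of spot noise. In MEC, where Dnajb1 and Hspb1 were higher in het after loess, all 12 luminal markers were higher in het as well. So were 7 of 7 endothelial, 6 of 6 adipocyte and 3 of 3 erythroid markers. Of the other lists, 6 of 12 basal, 4 of 8 immune, 1 of 6 muscle and 0 of 8 fibroblast markers were higher.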

How the results depend on the processing

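No paired analysis was possible because each group held 1 array and the labels give no replicate numbers that groups share. Population and genotype were fitted together, so populations were compared within genotype, and slide as a block could not be fitted apart from population. In P4 against P5 the 2 calls became 1 with outlier backgrounds replaced (Cryab kept, Hspa1a at -0.78, adjusted p = 0.0709) and 0 with median centring, the scanner's ratios or the series table, and ranged from 0 to 3 with 1 array left out. In P4 against MEC the 1 call became 2 with outlier backgrounds replaced, 5 with median centring and 3 from Cy5 alone (0 to 2 with 1 array left out). In P5 against MEC it became 2 with outlier backgrounds replaced, on genes above background on all 6 arrays or with every probe fitted, 3 with median centring or Cy5 alone, and 0 with the scanner's ratios or the series table (0 to 4). In het against WT the count of 0 became 5 with median centring, beside 31.6% of all genes. Within P4, P5 and MEC the 0 genes at 2-fold became 9, 4 and 2 with median centring, or 1 in MEC with the mean over probes. The share of all genes at 2-fold was not computed with these settings.

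Median centring, which moved the median of all genes to -0.23, -0.35 and -0.21 in P4 against MEC, P5 against MEC and het against WT, turned signs and made most calls lower ones: 330 higher and 6679 lower in P4 against MEC, where loess gave 678 and 1010, and 447 and 7794 in P5 against MEC, where loess gave 227 and 745. Under it P4 minus MEC was -1.21 for Hspa1a, -0.22 for Hsph1, -0.81 for Hspb1, -0.73 for Hsp90aa1, -0.99 for Hsp90ab1 and -0.88 for Cryab. P5 minus MEC was -0.18 for Hspa1a, -0.54 for Hsph1, -0.49 for Hspb1, -0.73 for Hsp90aa1, -0.87 for Hsp90ab1 and -0.87 for Dnajb1. Het minus WT was -0.86 for Hspa1a, -0.83 for Hspb1, -1.08 for Hsp90ab1, -1.02 for Dnajb1 and -0.41 for Cryab, and P4 minus P5 was -0.012 for Hspa8. From Cy5 alone P4 minus MEC turned to -1.03 for Hspa1a, -0.20 for Hspb1, 0.074 for Hspa5 and 0.11 for Dnajb1, and het minus WT to -0.14 for Hspa1a and -0.062 for Hspb1. The mean over probes turned Hspa1a in P4 against MEC (-0.056), and Hsp90ab1 (-0.020) and Dnajb1 (-0.099) in het against WT. The scanner's ratios and the series table turned Hsp90ab1 in het against WT (-0.027 each), and the sorted arrays alone Hspb1 (-0.0045) and Dnajb1 (-0.18). The cause was not tested.

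With 1 array left out, signs turned for Hspa5 (-0.099 to 0.39), Hspb1 (-0.71 to 0.050), Hsp90aa1 (-0.046 to 0.28) and Hsp90ab1 (-0.10 to 0.023) in P4 against P5, Hspa1a (-0.092 to 0.47), Hspa5 (-0.20 to 0.13) and Dnajb1 (-0.58 to 0.34) in P4 against MEC, Hspa5 (-0.42 to 0.062) in P5 against MEC, and Hspa5 (-0.18 to 0.089), Hspb1 (-0.0045 to 0.52) and Dnajb1 (-0.18 to 0.34) in het against WT. None of these was called.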
